A study of Danio rerio with 2 samples.

Results

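The enzymes of heme synthesis were followed in whole zebrafish larvae kept in benzo[a]pyrene (BaP) or in solvent. They comprised 10 genes, alas1, alas2, alad, hmbsa, hmbsb, uros, urod, cpox, ppox and fech, taken by their symbols from a table of 22849 genes. Each symbol matched 1 gene model, and all 10 had enough reads to be compared. Wild-type larvae of the AB strain had been exposed to 1 µM BaP, a combustion product that activates the aryl hydrocarbon receptor, or to 0.1% dimethyl sulfoxide (DMSO), between 3 and 6 days post fertilization (dpf), and RNA was taken at 6 dpf. The labels do not say whether the BaP larvae also received the solvent. Each treatment gave 1 library, made from RNA of 4 pooled biological replicates. A difference between the libraries therefore has no replicate check and no p-value, and each 95% interval below covers counting error only.

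Heme is the iron-containing ring that hemoglobin, the cytochromes of respiration and the cytochrome P450 enzymes carry. Its synthesis begins in the mitochondrion, where aminolevulinate synthase (ALAS) joins glycine and succinyl-CoA. It runs through the cytosol from alad to urod and ends in the mitochondrion, where ferrochelatase, the product of fech, inserts iron. ALAS is the limiting step and has a pair of genes in vertebrates. The gene alas1 is used in all tissues, with much of its expression in mammals in the liver, where heme represses it, whereas alas2 belongs to red cells. Zebrafish mutants in alas2 (sauternes), urod (yquem), ppox (montalcino) and fech (dracula) are known for defects of blood or for light-sensitive porphyrin build-up.

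Every value is a read count that the authors normalized and rounded, which is not corrected for gene length, so levels are compared between libraries and not between genes. The values of all genes summed to 11968060 in the BaP library and 13443263 in the DMSO library. They stood for about 21996000 estimated reads in the BaP library and 19806000 in the DMSO library, and each library had a median value of 143 per gene. The BaP-metabolizing cytochrome P450 gene cyp1a checked the labels, with 17859 in the BaP library and 650 in the DMSO library, a ratio of 27.5 (95% interval 25.7 to 29.4). A gene is called higher or lower when its ratio, BaP over DMSO, was at least 2-fold and its counting interval left out 1. Of 21764 genes compared, 697 were higher (3.2%) and 753 lower (3.46%), and the median log2 ratio was -0.06. With each library scaled to the same total, which added 0.17 to every log2 ratio, the split was 1003 higher and 490 lower.

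Of the 10 enzymes 4 were called higher in the BaP library (alas2, fech, urod and cpox) and 0 lower, beside 3.2% and 3.46% of all genes. All 10 ratios lay above 1, as did 41.5% of all genes, and the median log2 ratio of the enzymes was 0.66. The interval lay wholly above 1 for 7 of the 10, beside 18.1% of all genes. The 3 with an interval that included 1, in the deposited scaling, were alad, uros and ppox. Scaling to equal totals adds 0.17 to each log2 ratio. The log2 lower bounds of uros (-0.09) and ppox (-0.04) would then pass 0, and that of alad (-0.26) would not. With scaling by the median ratio the bound of ppox would also pass 0. Summed over the 10 genes the value was 4592 in the BaP library and 2531 in the DMSO library, a ratio of 1.81 (1.74 to 1.89). The ubiquitous alas1 held 65.1% of that sum in the BaP library and 66.3% in the DMSO library, and without it the ratio was 1.88 (1.75 to 2.01). Without alas2 as well, the other 8 genes had 1206 in BaP and 783 in DMSO (1.54-fold, 1.43 to 1.66).

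**Figure D1:**
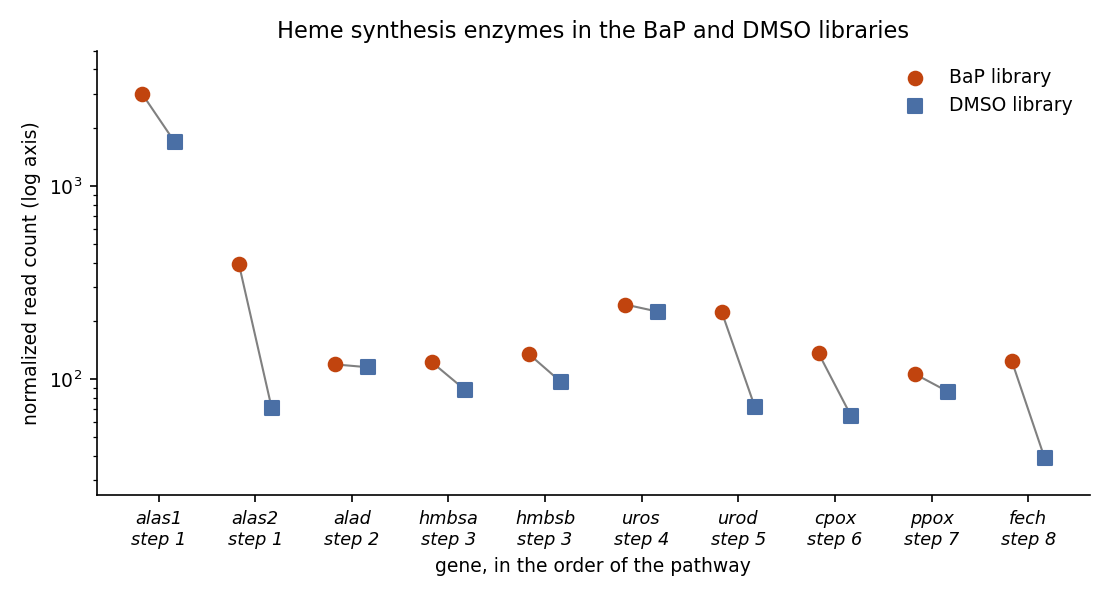
Normalized read count (log axis) of each heme synthesis gene in the BaP library (circles) and the DMSO library (squares), with genes along the horizontal axis in the order of the pathway. Each point is 1 library and carries no error bar. Lines fall steeply toward DMSO for alas2 (396 in BaP and 71 in DMSO), urod (221 in BaP and 72 in DMSO) and fech (124 in BaP and 39 in DMSO) and are nearly flat for alad (119 in BaP and 115 in DMSO) and uros (243 in BaP and 223 in DMSO). Values are not corrected for length, so heights are not to be compared between genes.

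The first step differed between its paired genes. The red cell gene alas2 (ENSDARG00000038643, chromosome 8, 21353878 to 21369028, plus strand) reached 396 normalized reads in the BaP library and 71 in the DMSO library. Its ratio was 5.58 (4.50 to 6.98), which placed it at rank 84 of the 21764 genes compared. The general gene alas1 (ENSDARG00000021059, chromosome 11, 260763 to 270210, minus strand) had 2990 in the BaP library and 1677 in the DMSO library. Its ratio of 1.78 (1.70 to 1.87) was under the 2-fold threshold, with a log2 ratio of 0.83, and 5.12% of all genes had one as high. With the libraries scaled to equal totals alas1 was also called higher, at a log2 ratio of 1.00.

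The log2 ratio of alas2 exceeded that of alas1 by 1.65 (1.33 to 1.98), so that the ratio of alas2 was 3.13 times that of alas1. This difference does not depend on how the libraries are scaled as a whole. The quotient of alas1 over alas2 was 7.55 in the BaP library and 23.6 in the DMSO library. Of the estimated reads on these paired genes, alas2 took 11.7% in the BaP library (exact binomial 95% interval 10.9 to 12.5) and 4.08% in the DMSO library (3.35 to 4.91). Summed, both genes had 3386 normalized reads in the BaP library and 1748 in the DMSO library (1.94-fold, 1.85 to 2.03).

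The span of alas2 overlaps that of ela2l, an elastase gene of the exocrine pancreas on the opposite strand, over 2258 bases. The gene ela2l had 6195 normalized reads in the BaP library and 19022 in the DMSO library, a ratio of 0.326 (0.319 to 0.333), the opposite direction to alas2. The labels' protocols describe stranded libraries, but the sources used here do not state if strand was used in counting. Without strand the reads of such a pair cannot be told apart where their exons overlap. The span of hmbsb likewise overlaps 2 gene models on the opposite strand, with 62 in BaP and 66 in DMSO for si:dkey-182i3.8 and 21 in BaP and 12 in DMSO for si:dkey-182i3.9.

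Of the 5 cytosolic genes 4 had ratios of 1.41 or less, and urod stood at 3.07. Aminolevulinate dehydratase, which condenses aminolevulinate into the pyrrole porphobilinogen, is encoded by alad (ENSDARG00000100372, chromosome 5, 54482325 to 54497319). It had 119 normalized reads in the BaP library and 115 in the DMSO library (ratio 1.03, 0.836 to 1.28). Uroporphyrinogen III synthase, which closes the ring, is encoded by uros (ENSDARG00000027491, chromosome 12, 48674381 to 48682751). Its values were 243 in the BaP library and 223 in the DMSO library (ratio 1.09, 0.939 to 1.27). As deposited, neither gene could be told from equality by its counting interval.

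Hydroxymethylbilane synthase, which links pyrroles into a chain, has a pair of genes in zebrafish. The copy hmbsa (ENSDARG00000008840, chromosome 5, 30518036 to 30534426) had 122 normalized reads in the BaP library and 88 in the DMSO library, a ratio of 1.39 (1.101 to 1.75). The copy hmbsb (ENSDARG00000055991, chromosome 15, 23511407 to 23529945) had 135 in BaP and 96 in DMSO, a ratio of 1.41 (1.13 to 1.76). The log2 ratios of the copies differed by 0.02 (-0.44 to 0.48), within counting error, and hmbsb held 52.5% of their reads in the BaP library and 52.0% in the DMSO library. The sources used here do not state how reads shared by both copies were assigned. Summed, they had 257 normalized reads in the BaP library and 184 in the DMSO library (1.40-fold, 1.19 to 1.64).

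Uroporphyrinogen decarboxylase, the last cytosolic enzyme, stood apart from the cytosolic steps before it. Its gene urod (ENSDARG00000006818, chromosome 2, 27556168 to 27575803) had 221 normalized reads in the BaP library and 72 in the DMSO library. The ratio was 3.07 (2.45 to 3.88), and 1.27% of all genes had one as high. It exceeded that of uros, the step before, 2.82-fold (2.15 to 3.71). In rodents, a low activity of this enzyme with a build-up of uroporphyrin is a known effect of strong receptor agonists such as dioxin. Activity and porphyrins were not measured here. The 5 cytosolic genes together had 840 normalized reads in the BaP library and 594 in the DMSO library (1.41-fold, 1.299 to 1.54).

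Of the last 3 steps, which run in the mitochondrion, the first and the last were called higher and the middle one was not. Coproporphyrinogen oxidase, which works in the space between the mitochondrial membranes, is encoded by cpox (ENSDARG00000062025, chromosome 8, 18601252 to 18613948). It had 136 normalized reads in the BaP library and 64 in the DMSO library, a ratio of 2.12 whose interval (1.65 to 2.76) reached below 2. Protoporphyrinogen oxidase, which makes the final ring, is encoded by ppox (ENSDARG00000102167, chromosome 16, 42289076 to 42306597). Its values were 106 in the BaP library and 86 in the DMSO library, and its ratio was 1.23 (0.970 to 1.57). As deposited, this ratio could not be told from equality, though under other scalings its interval would leave out 1. Ferrochelatase is encoded by fech (ENSDARG00000003462, chromosome 21, 1647990 to 1670264), with 124 normalized reads in the BaP library and 39 in the DMSO library. Its ratio was 3.18 (2.33 to 4.41), 2.58 times that of ppox (1.74 to 3.87). In the DMSO library it had the fewest reads of the 10 genes, about 57.5 estimated reads. Together the 3 genes had 366 normalized reads in the BaP library and 189 in the DMSO library (1.94-fold, 1.68 to 2.24).

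**Figure D2:**
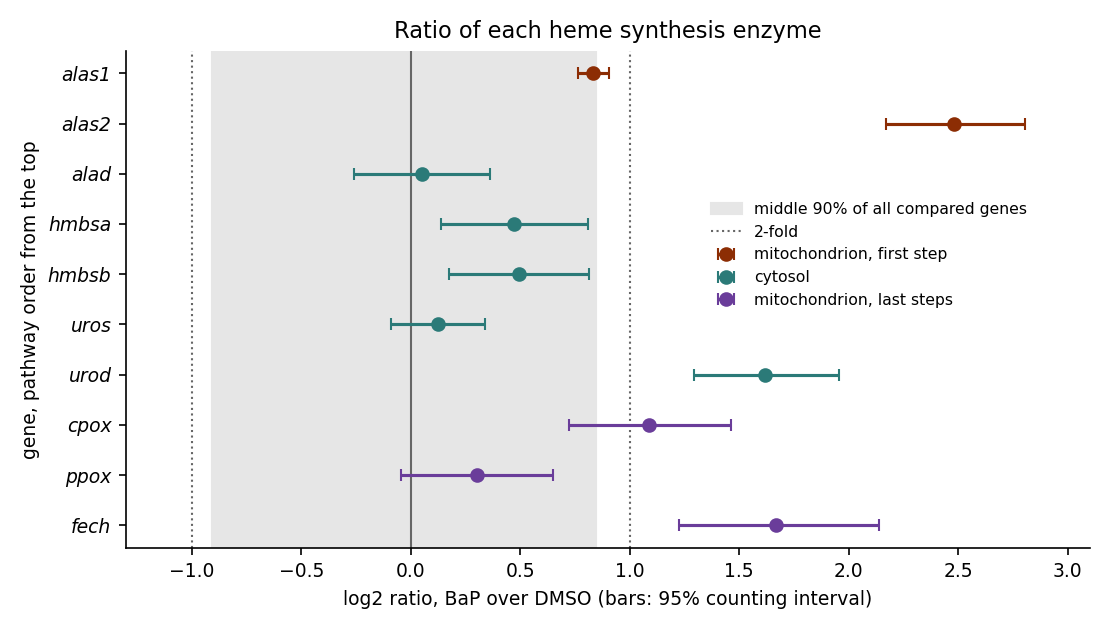
Log2 ratio, BaP over DMSO, of each enzyme gene in pathway order from the top, with its 95% counting interval and coloured by place in the cell; the grey band spans the 5th to 95th percentile of all compared genes (-0.91 to 0.85) and dotted lines mark 2-fold. Points for alas2 (2.48), urod (1.62), fech (1.67) and cpox (1.09) lie right of the band, and alas1 (0.83) lies at its edge.

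In order of ratio the enzymes ran alas2, fech, urod, cpox, alas1, hmbsb, hmbsa, ppox, uros and alad. Of the 9 neighbouring pairs in that order, 3 differed beyond counting error. These were alas2 over fech, by 1.75-fold (1.19 to 2.57), urod over cpox, by 1.44-fold (1.02 to 2.04), and alas1 over hmbsb, by 1.27-fold (1.01 to 1.59). Neighbours such as fech and urod (1.04-fold apart, 0.704 to 1.54) or cpox and alas1 (1.19-fold, 0.922 to 1.55) did not. The order was set by these same ratios, and the intervals were not adjusted for the 9 comparisons. The order of ratios did not follow the order of the steps. The 4 called genes belong to steps 1, 5, 6 and 8. The 3 genes whose interval included 1 in the deposited scaling belong to steps 2, 4 and 7. At a 3-fold threshold alas2, fech and urod were still called, against 1.3% of all genes called higher and 1.03% lower. At 1.5-fold 5 enzymes were called higher and 0 lower, against 7.2% and 8.6% of all genes.

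**Figure D3:**
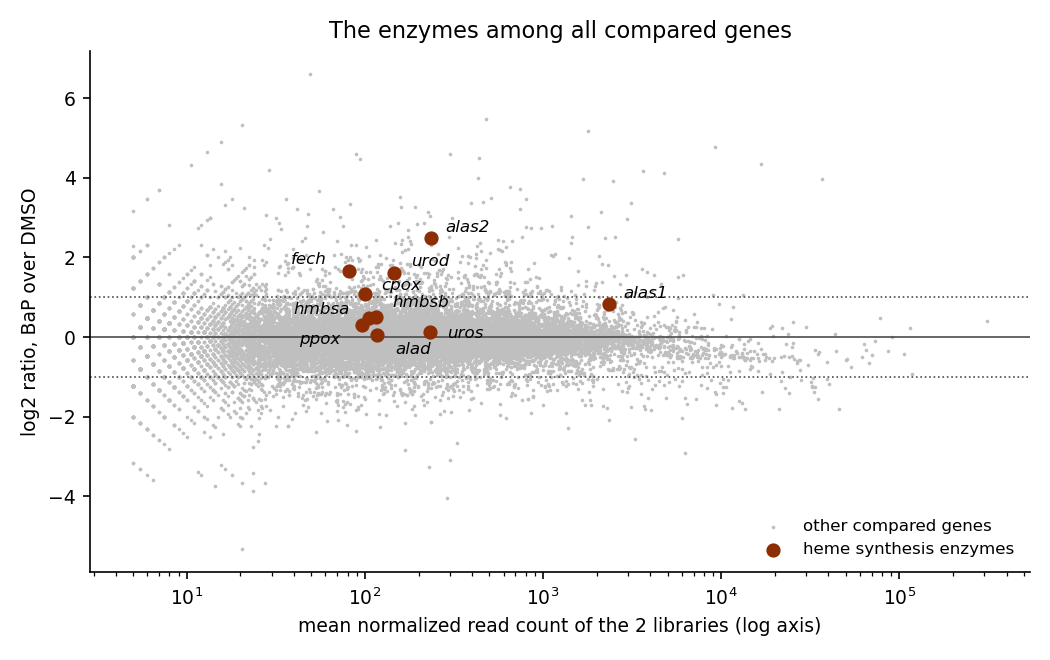
Log2 ratio, BaP over DMSO, against the mean normalized read count of both libraries (log axis) for the 21764 compared genes (grey) and the 10 heme synthesis enzymes (dark points). Besides alas1, the enzymes lie at a mean value between 81.5 (fech) and 233.5 (alas2), and none lies below a log2 ratio of 0.

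Red cell markers, the globins above all, included genes called higher in the BaP library. Of 24 compared markers 10 were higher and 1 lower (median log2 ratio 0.83), beside 3.2% and 3.46% of all genes. A ratio above 1 was found for 19 of them, beside 41.5% of all genes. Their summed value was 16466 in the BaP library and 11032 in the DMSO library. Of the 8 compared globin genes all were higher, with log2 ratios between 1.15 and 1.54 (median 1.34), among them the embryonic globin genes hbae1 (ENSDARG00000088330, 145 in BaP and 50 in DMSO), hbae3 (3897 in BaP and 1535 in DMSO) and hbbe1.1 (2246 in BaP and 914 in DMSO). Globin copies are nearly identical, so their single values are uncertain. The anion exchanger gene slc4a1a had 620 in the BaP library and 154 in the DMSO library, a ratio of 4.03 (3.47 to 4.68). The adult globin genes hbaa1, hbaa2 and hbba2 were at 0 in both libraries, and the 2 models named hbba1 had 1 normalized read or fewer in each library. Of the 16 markers that are not globins 2 were higher, slc4a1a and nt5c2l1, and 1 lower, a gene model of ank1a with 45 in BaP and 90 in DMSO (median log2 ratio of the 16, 0.28). The ratio of that model was 0.5, at the threshold, and under each of the 4 other scalings tried 0 red cell markers were called lower. The summed value of the 16 was 8120 in the BaP library and 7646 in the DMSO library, with rhag its largest part in each. The erythroid regulator gene gata1a had 23 in the BaP library and 16 in the DMSO library (interval of the ratio 0.807 to 2.64). For klf1 the values were 31 in BaP and 17 in DMSO (1.08 to 3.20). Ratios below 1 were found for tal1, with 206 in BaP and 217 in DMSO (0.812 to 1.11), and hemgn, with 232 in BaP and 281 in DMSO (0.717 to 0.951). The marker rhag also had one, with 2520 in BaP and 3211 in DMSO (0.753 to 0.818). In whole larvae, more red cells and more RNA per red cell cannot be told apart.

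Set against the globins, alas2 was still 1.14 higher on the log2 scale than their median (1.34). By counting alone, fech (0.33 above), urod (0.28 above) and cpox (0.25 below) could not be told from that median. Their log2 intervals were 1.22 to 2.14 for fech, 1.29 to 1.95 for urod and 0.72 to 1.46 for cpox. The other 6 enzymes lay below that median, alas1 by 0.51 and alad by 1.29. No compared red cell marker had a ratio above that of alas2. When every log2 ratio was taken relative to the median of the whole marker list, a setting chosen after the data had been seen, alas2 was the 1 enzyme still at least 2-fold higher (log2 ratio 1.65). In that setting 0.813% of all genes were called higher, and the median log2 ratio of all genes was -0.89. The part of red cell content in the enzyme values was not tested.

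Liver markers included genes called lower and none called higher. Of 19 compared, 0 were higher and 8 lower (median log2 ratio -0.87), beside 3.2% and 3.46% of all genes. Their summed value was 92987 in the BaP library and 158611 in the DMSO library. The transferrin gene tfa had 2499 in the BaP library and 7282 in the DMSO library, the apolipoprotein gene apoa1b 20007 in BaP and 43470 in DMSO, the fetuin gene ahsg1 90 in BaP and 566 in DMSO, and the hemopexin gene hpx 3 in BaP and 33 in DMSO. With the libraries scaled by their totals 3 were lower, beside 490 of the 21764 genes compared. With the running median of the ratio over abundance subtracted 4 were lower, beside 592 of all genes. The fatty acid-binding protein gene fabp10a, which marks hepatocytes, had 8416 in BaP and 8255 in DMSO. All 19 had a ratio below that of alas1, whose log2 ratio exceeded their median by 1.70.

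Markers of mitochondrial content were mixed. Of 21 compared, 5 were higher and 0 lower (median log2 ratio 0.35), beside 3.2% and 3.46% of all genes. Their summed value was 49878 in the BaP library and 39265 in the DMSO library. The higher genes included the chaperonin gene hspd1 (1829 in the BaP library and 446 in the DMSO library), the succinate dehydrogenase genes sdha (9129 in BaP and 3083 in DMSO) and sdhb (3717 in BaP and 1284 in DMSO), and the prohibitin genes phb (1455 in BaP and 637 in DMSO) and phb2a (1056 in BaP and 479 in DMSO). Citrate synthase, cs, had 3742 in BaP and 3711 in DMSO, and the pore gene vdac2 had 14302 in BaP and 14833 in DMSO. The part of mitochondrial content in the enzyme values was not tested.

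Genes that supply the pathway or carry its intermediates included 3 called higher and 0 lower among 23 compared, beside 3.2% and 3.46% of all genes. Their median log2 ratio was 0.43, and 18 had a ratio above 1, beside 41.5% of all genes. The ABC transporter gene abcb6a, whose mammalian counterpart is linked to porphyrin transport, had 399 normalized reads in the BaP library and 124 in the DMSO library (3.22-fold, 2.72 to 3.83). The gene slc25a38a, a mitochondrial carrier that brings in glycine for ALAS, had 59 in the BaP library and 28 in the DMSO library (2.11-fold, 1.42 to 3.18). Its copy slc25a38b had 273 in BaP and 197 in DMSO (1.39-fold, 1.19 to 1.61). Mitoferrin 1, the iron importer of red cell mitochondria encoded by slc25a37, had 36 in the BaP library and 18 in the DMSO library. Its ratio was 2 (1.21 to 3.42), exactly at the threshold for a call. The more widely used mitoferrin 2 gene, slc25a28, had 1461 in BaP and 1372 in DMSO (1.06-fold, 1.00 to 1.13). The protease-associated genes clpxa and clpxb, whose product acts on ALAS protein, had ratios of 1.41 and 1.35. On the side of the substrates, shmt2, which makes glycine in mitochondria, had 456 in BaP and 730 in DMSO (ratio 0.625), and the succinyl-CoA ligase gene suclg1 had 1638 in BaP and 2251 in DMSO (ratio 0.728). With the libraries scaled by their totals, 6 genes of this list were called higher, beside 4.61% of all genes.

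Of 25 compared genes of iron-sulfur cluster assembly and iron supply 4 were higher and 1 lower, beside 3.2% and 3.46% of all genes. Their median log2 ratio was 0.34, and 21 had a ratio above 1, beside 41.5% of all genes. The ferrochelatase of vertebrates carries such a cluster. The sulfur donor gene nfs1 had 1266 normalized reads in the BaP library and 388 in the DMSO library (3.26-fold, 2.97 to 3.59), the mitochondrial chaperone gene hspa9 had 5813 in BaP and 1860 in DMSO (3.13-fold, 3.00 to 3.26), and the glutaredoxin gene glrx5 had 400 in BaP and 164 in DMSO (2.44-fold, 2.10 to 2.85). A transferrin receptor gene, tfr1a, which zebrafish red cells need, had 92 in the BaP library and 42 in the DMSO library (2.19-fold, 1.602 to 3.04). Its copy tfr1b had 406 in BaP and 320 in DMSO (1.27-fold, 1.13 to 1.43). The lower gene was tfa, given above among the liver markers. The frataxin gene fxn had 92 in BaP and 73 in DMSO, and its interval (0.972 to 1.64) included 1.

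Genes that use, export or break down heme differed in both directions, with 7 higher and 2 lower of 21 compared (median log2 ratio 0.56), beside 3.2% and 3.46% of all genes. The heme A synthase gene cox15, which finishes the heme of cytochrome oxidase, had 732 normalized reads in the BaP library and 164 in the DMSO library (4.46-fold, 3.88 to 5.16), while cox10, the enzyme before it, had 527 in BaP and 341 in DMSO (1.55-fold, 1.38 to 1.73). The genes hccsa.1 and hccsb, whose products attach heme to cytochrome c, were 3.96-fold and 2.62-fold higher. The biliverdin reductase gene blvra had 377 in the BaP library and 52 in the DMSO library (7.25-fold, 5.66 to 9.42), and blvrb had 521 in BaP and 240 in DMSO. The heme oxygenase gene hmox1a, which opens the ring and whose product makes biliverdin, had 178 in the BaP library and 505 in the DMSO library, a ratio of 0.352 (0.307 to 0.403). Another heme oxygenase gene, hmox2a, went the other way without being called, with 1295 in BaP and 831 in DMSO (1.56-fold, 1.45 to 1.67). The ABC transporter gene abcg2b had 129 in BaP and 16 in DMSO (8.06-fold, 5.12 to 13.5) and abcg2a 8521 in BaP and 2980 in DMSO. The mammalian counterpart of both exports porphyrins among many other compounds. The heme exporter gene flvcr1 had 162 in BaP and 149 in DMSO (1.09-fold, 0.904 to 1.31). The second lower gene was hpx, given above.

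Of 20 compared regulators known to act on the ALAS genes 1 was higher and 0 lower (median 0.26), beside 3.2% and 3.46% of all genes. It was nr1d1, which encodes the heme-binding clock repressor Rev-erb alpha, known in mammals to lower Alas1 expression, with 420 in the BaP library and 129 in the DMSO library (3.26-fold, 2.76 to 3.86). Its relatives nr1d2a, with 3337 in BaP and 2207 in DMSO (1.51-fold, 1.45 to 1.58), and nr1d2b (1.27-fold, 1.14 to 1.41) were not called. The regulator gene hnf4a had a ratio of 0.756 (0.693 to 0.825). The coactivator gene ppargc1a, which raises Alas1 expression in mouse liver, had 252 in BaP and 258 in DMSO (ratio 0.977, 0.848 to 1.13), and its relative ppargc1b had 1931 in BaP and 1188 in DMSO (1.63-fold, 1.53 to 1.72). The genes of the iron regulatory proteins, which in mammals hold back translation of ALAS2 when iron is short, had 414 in BaP and 322 in DMSO for aco1 and 412 in BaP and 366 in DMSO for ireb2.

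**Figure D4:**
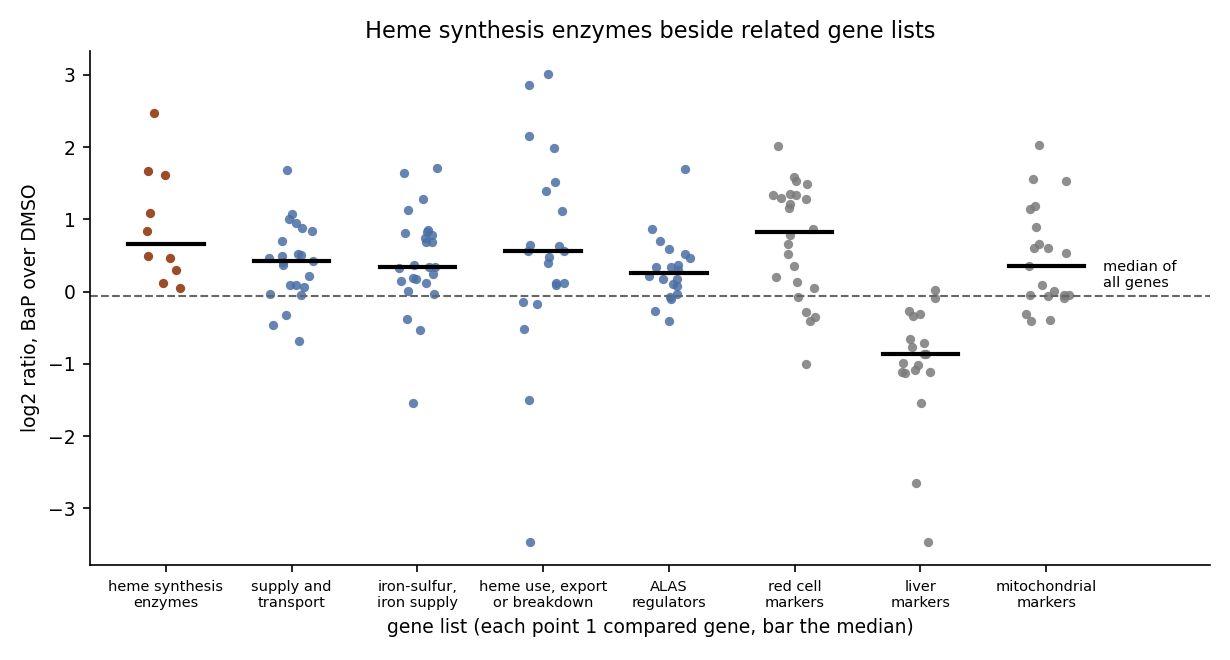
Log2 ratio, BaP over DMSO, of each compared gene in the list of heme synthesis enzymes, in the 4 related lists and in the 3 marker lists; each point is 1 gene, black bars are list medians and the dashed line is the median of all genes (-0.06). The enzymes (median 0.66) lie between the red cell markers (0.83) and the list of heme use, export and breakdown (0.56), while the liver markers lie lowest (-0.87). Genes placed in several lists appear in each.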

How the data were processed

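Whole-larva RNA was profiled as 1 stranded mRNA library per treatment, and 200 ng of total RNA entered each library, per the labels' protocols. The submitters' processing notes name featureCounts 1.6.3, STAR 2.6.1d, Trimmomatic 0.38 and the builds GRCz11 and danRer11, without role or order. Coordinates are those of the deposited table, which names no build. The deposited values are a score: normalized read counts rounded to whole numbers by the authors, by a method that the sources used here do not state.

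The amount that 1 read is worth was estimated from the alternating frequency of low values, by maximum likelihood, as 0.544 (BaP) and 0.679 (DMSO). Dividing by it gave approximate reads. Ratios are those of deposited values. Their 95% intervals are Clopper-Pearson intervals conditional on the summed reads, widened by the rounding of each value; intervals of differences combine 2 such intervals. They cover counting error only, and copies of 1 molecule count as separate reads. Genes with a sum of at least 10 were compared. Factor, interval and call rule were tested on simulated data. These were made with the same model of scaled and rounded reads, so they cannot show whether the deposited values follow that model. Factors near simple fractions, which the estimate does not recover, were left out of that test. Of 164 listed symbols 154 matched, 5 of them through a name table.

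The members and lists were chosen with earlier results of these data known. Every enzyme is named, with up to 4 called genes of each list whose interval lay farthest from 1. Other named genes were chosen after their values were seen. Alternatives were other scalings, filters, thresholds and pseudocounts. Count models were not used, since values are not counts. Sequences of the genes are not used here. Scripts ran under Python 3.11.15 with pandas 2.3.3, scipy 1.17.1, numpy 2.4.6 and matplotlib 3.10.9.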

Additional observations from a re-analysis of the deposited data

How the results depend on the processing

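The count of enzymes at least 2-fold higher was 4 or 5 under the planned scalings and filters, and 3 were at least 3-fold higher, with 0 lower throughout, and all 10 log2 ratios stayed above 0 under every scaling tried relative to all genes. Relative to the median of the red cell markers, an alternative chosen after the data had been seen, the count of higher enzymes was 1, beside 0.813% of all genes. The log2 ratio of the summed value, 0.86, became 1.03 with scaling by totals, 0.918 by the median ratio and 0.923 by the trimmed mean of M values. Of all genes, 1566 were higher and 1872 lower at 1.5-fold, and 284 and 225 at 3-fold. With scaling by totals 1003 were higher and 490 lower, and with a sum of at least 50 there were 552 higher and 497 lower. The difference of alas2 and alas1 lay between 1.57 and 1.65 under the scalings and pseudocounts tried. Among the alternatives for single genes and lists 176 values kept within their counting interval or within 1.5 times the count, and 38 did not. No paired analysis was possible because each treatment has 1 library. For the same reason no library could be left out, and variation between larvae or pools, which no interval here includes, could not be estimated.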

Other observations

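The table's annotation places 25 genes on the porphyrin map of KEGG, the 10 enzymes and 15 others. Among those 15 others, BaP over DMSO, 5 were called higher and 1 lower, beside 3.2% and 3.46% of all genes. These 6 were cox15, hccsa.1, hccsb, blvra, blvrb and hmox1a, all of which are already counted above among the genes of heme use, export and breakdown. The vitamin B12 enzyme gene mmab had 106 normalized reads in the BaP library and 85 in the DMSO library (1.25-fold, 0.981 to 1.59). The tRNA synthetase gene eprs had 3824 in BaP and 3473 in DMSO (1.101-fold, 1.06 to 1.14). The ceruloplasmin gene cp, for a copper-carrying ferroxidase of plasma, had 634 in the BaP library and 1262 in the DMSO library, a ratio of 0.502 (0.466 to 0.541), just short of the 2-fold threshold. The heme oxygenase gene hmox2b had 69 in BaP and 99 in DMSO (ratio 0.697, 0.538 to 0.901), whereas hmox2a, given above and not among these 15, had a ratio above 1.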
